A study of Mus musculus with 20 samples.

Results

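The data described here cover the step from day 3 to day 5 of mechanical overload (MOV) in mouse plantaris muscle: 4 arrays of day 5 against 4 arrays of day 3, which are all the arrays labelled as overloaded for 5 or 3 days and 8 of the 20 arrays of the series. Each array measured total RNA of the plantaris by hybridisation, and a value is a log2 expression level after robust multi-array averaging (RMA). MOV was produced by synergist ablation, in which the other calf muscles that share the load of the plantaris are cut away, so that the plantaris takes over their work and grows. Sham arrays were left out of the comparison, and arrays of days 1 and 7 served only to describe levels and, with the sham arrays, in an alternative fit over all 20.

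The groups, of 2 arrays each, were SC- at day 5, SC- at day 3, SC+ at day 5 and SC+ at day 3. All mice were females of 5 months with the genotype Pax7CreER/+; Rosa26DTA/+. In such mice tamoxifen switches on Cre recombinase in cells that express *Pax7*, which are the satellite cells of muscle, and Cre lets those cells make a diphtheria toxin subunit that kills them. SC- mice had received tamoxifen and SC+ mice the vehicle. Because both carried the same alleles and no group received tamoxifen with its satellite cells kept, loss of satellite cells and tamoxifen itself cannot be told apart. Every array held RNA pooled from 2 or 3 mice, so a p-value here rests on the spread between pools and not between mice. In the comparison of days with treatment as covariate, the error also holds any difference between SC- and SC+ in the change. The number of arrays limits the precision. In whole muscle, fewer cells of a type and less RNA per cell cannot be told apart.

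In the first days of overload a muscle goes through a wave of neutrophils and inflammatory macrophages and through acute stress of its fibres. Macrophages then change state, fibroblast-like cells (fibro-adipogenic progenitors and tenocytes) lay down matrix, and satellite cells divide, differentiate and fuse with fibres. Matrix at this stage is provisional and rich in fibronectin, tenascin and periostin, and collagens are woven into it and crosslinked by dedicated enzymes.

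The 8 arrays had medians between 6.52 and 6.57 and correlated at 0.9874 to 0.9907 within a group. In a principal component analysis of the 2000 most variable probe sets, the component with the largest share (44% of variance) put the day 5 arrays at 14 to 23.8 and the day 3 arrays at -20.4 to -15.5, and the next (21.6%) set SC- apart from SC+ at day 5. *Pax7* itself was read near the bottom of the scale in all 8 arrays (3.77 to 5.22) and so checks little. *Mymk*, which encodes the fusion protein myomaker of differentiating myoblasts, was lower in every SC- pool than in every SC+ pool at both days, with 9.29 and 9.04 in SC- and 12.93 and 13.28 in SC+ pools at day 5, and 6.71 and 7.27 in SC- and 12.23 and 11.33 in SC+ pools at day 3. One array outside the comparison, SC- day 1 replicate 2, stood apart from the other day 1 arrays for matrix genes, with *Postn* at 17.45, against 10.76 to 11.39 in the other 3, and it enters only the levels given for day 1 and the fits over all 20 arrays. Values stopped at 19.93 at the top, so differences of the brightest genes are compressed.

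Between day 3 and day 5, 369 of 19572 probe sets with 1 gene symbol rose (1.89%) and 173 fell (0.884%) in limma with treatment as covariate, at an adjusted p under 0.05. The largest rise was 21.9-fold, and 215 rises and 88 falls were at least 1 on the log2 scale. The median over all probe sets was -0.0189. All 369 rises were higher at day 5 in both SC- and SC+, and all 173 falls were lower at day 5 in both. All 4 day 5 arrays lay above all 4 day 3 arrays for 325 of the 369 rises. They lay below them for 150 of the 173 falls. Over all probe sets these shares were 4.24% and 3.9%. The rises and falls had been called for a difference between the days in the same arrays. Their separation of the days and their shared direction in SC- and SC+ are therefore largely built in and are no independent test. The number of rises was 223 without SC+ day 5 replicate 2 and 244 without SC+ day 3 replicate 1. The number of falls was 79 without SC- day 3 replicate 1, 88 without SC- day 5 replicate 2, 94 without SC+ day 5 replicate 2, 99 without SC+ day 3 replicate 1 and 114 without SC+ day 3 replicate 2. No gene of the 542 changed sign in any of these, though the 542 had been picked from the same arrays.

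**Figure D1:**
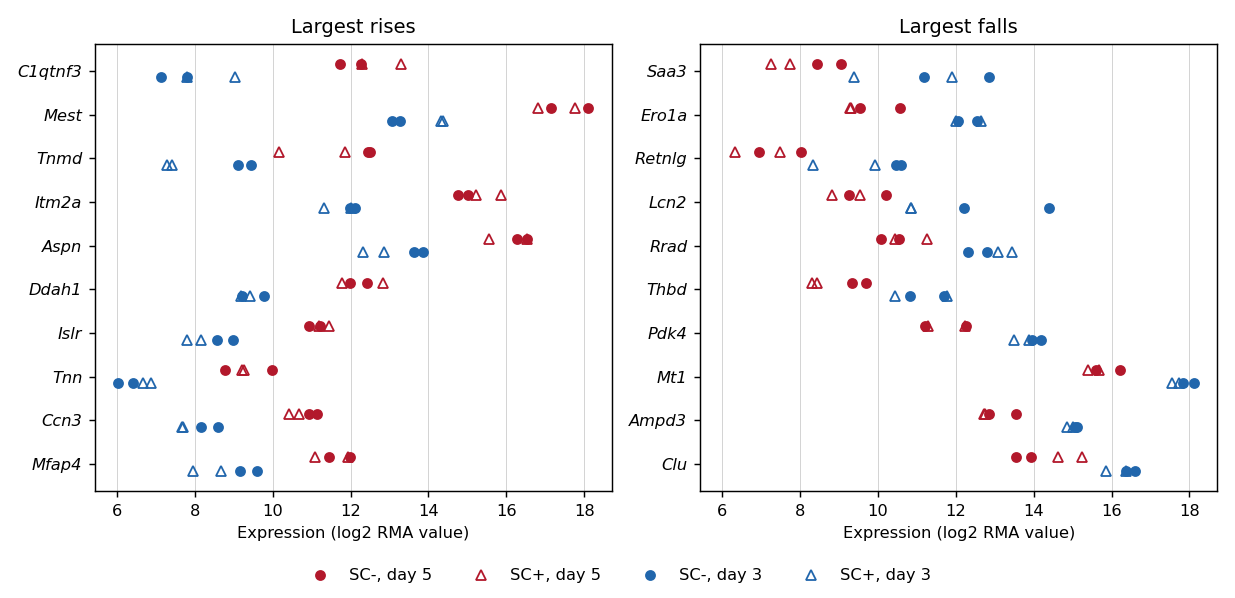
Log2 RMA value (x axis) of the 10 largest rises (left) and 10 largest falls (right) among genes whose arrays of the 2 days did not overlap, 1 point per array, with day 5 in red and day 3 in blue, filled circles for SC- and open triangles for SC+. The genes were chosen so that the day 5 arrays lie wholly to one side of the day 3 arrays, and the day 3 points of *Saa3* and *Lcn2* are the most scattered on the right. Predicted genes, Riken clones and pseudogenes were passed over.

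Predicted genes, Riken clones and pseudogenes were passed over in naming the largest changes. Among genes whose arrays of the 2 days did not overlap and whose mean was at least 7 in the higher day, the largest rise was *C1qtnf3*, which encodes a secreted protein of the C1q and TNF family made by cartilage and fibroblasts. Its level was 11.74 and 12.27 in SC- and 12.29 and 13.30 in SC+ pools at day 5, against 7.80 and 7.14 in SC- and 9.04 and 7.81 in SC+ pools at day 3, a difference of 4.45 (SE 0.29, adjusted p = 5.47e-06). *Mest*, an imprinted gene of growing mesodermal tissue, stood at 17.15 and 18.09 in SC- and 16.82 and 17.76 in SC+ pools at day 5 and 13.07 and 13.27 in SC- and 14.32 and 14.37 in SC+ pools at day 3, a difference of 3.70 (SE 0.31, adjusted p = 3.25e-05). In both genes the lowest day 5 pool was above the highest day 3 pool by over 2 on the log2 scale. *Tnmd*, the tendon glycoprotein tenomodulin, was at 12.44 and 12.49 in SC- and 10.16 and 11.87 in SC+ pools at day 5 and 9.44 and 9.10 in SC- and 7.42 and 7.28 in SC+ pools at day 3, a difference of 3.43 (SE 0.29, adjusted p = 3.1e-05), and its SC+ pools were below its SC- pools within each day. *Itm2a*, a membrane protein of chondrocyte and muscle precursors, rose by 3.35. *Aspn*, *Tnn*, *Mfap4* and *Islr* encode asporin, tenascin N, a microfibril glycoprotein and a marker protein of mesenchymal stromal cells, and rose by 3.06, 2.80, 2.76 and 2.82. *Ddah1*, which breaks down an inhibitor of nitric oxide synthase, rose by 2.85, and *Ccn3*, a matricellular growth regulator, by 2.76.

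Among the falls chosen in the same way the largest was *Saa3*, an acute-phase serum amyloid of inflamed tissue, at 9.05 and 8.44 in SC- and 7.74 and 7.25 in SC+ pools at day 5 and 11.18 and 12.86 in SC- and 11.90 and 9.38 in SC+ pools at day 3, a difference of -3.21 (SE 0.45, adjusted p = 0.00123). Its day 3 pools spread over more than 3 on the log2 scale, and the lowest of them was still above the highest day 5 pool. *Ero1a*, the oxidase that forms disulphide bonds in the endoplasmic reticulum, was at 9.55 and 10.58 in SC- and 9.30 and 9.27 in SC+ pools at day 5 and 12.54 and 12.07 in SC- and 12.00 and 12.64 in SC+ pools at day 3, a difference of -2.64 (SE 0.26, adjusted p = 8.59e-05). *Rrad*, a small GTPase that restrains calcium channels, fell to 10.55 and 10.07 in SC- and 11.26 and 10.43 in SC+ pools at day 5, against 12.79 and 12.32 in SC- and 13.08 and 13.43 in SC+ pools at day 3, a difference of -2.33 (SE 0.22, adjusted p = 6.41e-05). The neutrophil genes *Retnlg* and *Lcn2* fell (differences -2.63 and -2.61), as did the thrombin-binding *Thbd* (-2.24) and *Clu*, the secreted chaperone clusterin (-1.97). *Pdk4*, a kinase that shuts off pyruvate dehydrogenase (-2.12), *Mt1*, a metallothionein (-2.09), and *Ampd3*, an AMP deaminase (-2.03), completed the 10.

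Genes of the extracellular matrix were among the rises in large numbers. Of 28 measured matricellular and glycoprotein genes, 20 rose and 0 fell, with a list median of 1.25 on the log2 scale. Over all probe sets 1.89% rose, 0.884% fell and the median was -0.0189, and these shares apply to every list below. The lists and their members were chosen with earlier results of these data known, so a share above that of all probe sets is partly built in. Day 5 arrays lay wholly above day 3 arrays in 4.24% of all probe sets and wholly below in 3.9%. For genes called in the same arrays such separation is largely built in. *Thbs2*, a thrombospondin that limits matrix turnover and vessel growth, was at 15.40 and 15.53 in SC- and 14.61 and 15.21 in SC+ pools at day 5 and 12.91 and 12.37 in SC- and 12.76 and 12.43 in SC+ pools at day 3, a difference of 2.57 (SE 0.21, adjusted p = 2.69e-05). *Postn*, periostin of the provisional matrix, reached 19.33 and 18.97 in SC- and 19.11 and 19.42 in SC+ pools at day 5, against 17.70 and 17.45 in SC- and 17.47 and 17.06 in SC+ pools at day 3, a difference of 1.79 (SE 0.19, adjusted p = 0.00016). *Fn1*, fibronectin, was at 17.05 and 17.27 in SC- and 16.44 and 16.79 in SC+ pools at day 5 and 15.62 and 15.13 in SC- and 15.08 and 15.21 in SC+ pools at day 3, a difference of 1.63 (SE 0.18, adjusted p = 0.000251). All 4 day 5 pools were above all 4 day 3 pools in each of these. *Cthrc1*, *Ogn*, *Lum*, *Tnc* and *Bgn* encode a collagen triple helix protein, osteoglycin, lumican, tenascin C and biglycan, and rose by 2.24, 2.24, 1.83, 1.53 and 1.10. *Sparc*, which binds collagen as it is secreted, rose by 1.16, with day 5 levels of 19.84 and 19.85 in SC- and 19.46 and 19.79 in SC+ pools at the top of the scale. In a fit over all 20 arrays 10 of the 28 rose, and *Postn*, *Fn1*, *Cthrc1*, *Tnc*, *Bgn* and *Sparc* were among those not called. The cause of this loss was not tested.

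Of 20 collagen genes 11 rose and 0 fell (median 0.89). *Col1a1*, of fibrillar collagen I, was at 17.08 and 17.05 in SC- and 16.22 and 17.13 in SC+ pools at day 5 and 15.54 and 15.17 in SC- and 15.15 and 14.52 in SC+ pools at day 3, a difference of 1.78 (SE 0.22, adjusted p = 0.000493), with no overlap. *Col1a2*, its partner chain, rose by 2.05, *Col5a1* and *Col5a2* of collagen V, which starts fibril assembly, by 2.21 and 1.65, and *Col3a1* of collagen III by 0.99. *Col6a2* and *Col6a3*, of the collagen VI network around fibres, rose by 1.82 and 1.67. *Col11a1*, better known from cartilage, was dim, at 6.86 and 7.81 in SC- and 6.38 and 6.98 in SC+ pools at day 5 and 6.22 and 5.82 in SC- and 5.50 and 5.01 in SC+ pools at day 3, and rose by 1.37. In the fit over all 20 arrays *Col1a1*, *Col1a2* and *Col3a1* were not called.

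Of 16 genes for collagen processing and crosslinking 8 rose and 0 fell (median 0.73). *Bmp1*, the protease that trims procollagen ends, was at 11.33 and 11.04 in SC- and 10.56 and 10.67 in SC+ pools at day 5 and 9.56 and 9.33 in SC- and 8.95 and 9.29 in SC+ pools at day 3, a difference of 1.61 (SE 0.17, adjusted p = 0.00017), with every day 5 pool above every day 3 pool. *Loxl1*, an elastin and collagen crosslinking oxidase, rose by 1.43, *P4ha3*, a prolyl hydroxylase subunit, by 1.35, and *Plod2*, a lysyl hydroxylase, by 1.03. *Lox*, the main lysyl oxidase, did not pass (difference 0.38, SE 0.22, adjusted p = 0.481). The count was 5 without SC- day 3 replicate 1 or SC- day 5 replicate 2, and 4 without SC+ day 5 replicate 2.

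Among 22 matrix proteases and their inhibitors 7 rose and 0 fell (median 0.18). *Mmp14*, the membrane protease that activates MMP2, was at 13.21 and 13.26 in SC- and 12.26 and 13.11 in SC+ pools at day 5 and 10.56 and 9.98 in SC- and 10.04 and 10.40 in SC+ pools at day 3, a difference of 2.72 (SE 0.22, adjusted p = 2.81e-05). *Mmp2*, the gelatinase it activates, was at 15.33 and 15.63 in SC- and 14.87 and 15.44 in SC+ pools at day 5 and 13.82 and 13.81 in SC- and 12.40 and 12.70 in SC+ pools at day 3, a difference of 2.14 (SE 0.22, adjusted p = 0.000155). *Timp2*, the inhibitor that also takes part in activating MMP2, rose by 1.14, and in all 3 genes every day 5 pool was above every day 3 pool. *Mmp13*, a collagenase, rose by 0.95, while *Timp1* did not pass (difference -0.33, SE 0.23, adjusted p = 0.577). *Ctsk*, the collagen-cleaving cathepsin K, was the 1 riser among 15 lysosomal genes, at 10.64 and 10.68 in SC- and 9.85 and 10.94 in SC+ pools at day 5 and 9.13 and 8.69 in SC- and 8.24 and 7.93 in SC+ pools at day 3, a difference of 2.03 (SE 0.24, adjusted p = 0.00033). The count of proteases and inhibitors was 4 without SC+ day 3 replicate 1 or SC+ day 5 replicate 2.

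Several markers of the cells that make matrix rose. Of 14 markers of fibro-adipogenic progenitors 8 rose and 1 fell (median 0.77), and the mean level of the list was 10.7 to 11.1 over the day 5 arrays and 9.79 to 10.5 over the day 3 arrays. *Thy1* and *Dpt*, a surface marker and the matrix protein dermatopontin, rose by 1.31 and 1.56, and *Osr1*, a transcription factor of activated progenitors, by 1.36. *Cxcl14*, a chemokine of stromal cells, was the marker that fell, to 10.21 and 10.39 in SC- and 9.93 and 9.19 in SC+ pools at day 5, against 11.77 and 11.65 in SC- and 11.05 and 11.59 in SC+ pools at day 3, a difference of -1.58 (SE 0.20, adjusted p = 0.000697). Of 15 tenocyte and cartilage genes 7 rose and 1 fell (median 0.79), led by *Tnmd*, with *Cilp* of cartilage matrix up by 1.76 and *Fmod*, fibromodulin, by 1.75. The faller was *Prg4*, the lubricant of tendon and joint surfaces (-0.93), whose call was lost on leaving out any 1 of 6 of the 8 arrays (highest adjusted p = 0.098). The progenitor count was 5 without SC- day 3 replicate 1, SC- day 5 replicate 1, SC+ day 3 replicate 1, SC+ day 3 replicate 2 or SC+ day 5 replicate 2, and the tenocyte count was 4 without SC+ day 3 replicate 2. The lists share members with each other and with the matrix lists.

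Of 12 genes of smooth muscle, pericytes and myofibroblasts 5 rose and 0 fell (median 0.47). *Tagln*, transgelin, was at 12.31 and 12.67 in SC- and 11.78 and 12.85 in SC+ pools at day 5 and 9.82 and 10.20 in SC- and 10.11 and 9.44 in SC+ pools at day 3, a difference of 2.51 (SE 0.24, adjusted p = 7.09e-05). *Acta2*, smooth muscle actin, was at 14.83 and 14.83 in SC- and 14.64 and 15.59 in SC+ pools at day 5 and 12.25 and 12.43 in SC- and 13.80 and 12.87 in SC+ pools at day 3, a difference of 2.13 (SE 0.26, adjusted p = 0.000411). *Cnn1*, calponin, and *Pdgfrb*, the PDGF receptor of mural cells, rose by 1.78 and 1.66. Every day 5 pool was above every day 3 pool in these 4 genes. *Mcam*, the fifth, rose by 1.07, a call lost on leaving out any 1 of 5 of the 8 arrays (highest adjusted p = 0.0865).

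Of 18 TGF-beta and Wnt ligands, receptors and antagonists 7 rose and 0 fell (median 0.68). *Sfrp1*, a secreted decoy for Wnt ligands, was at 9.49 and 8.68 in SC- and 7.73 and 9.26 in SC+ pools at day 5 and 6.63 and 6.74 in SC- and 5.88 and 6.14 in SC+ pools at day 3, a difference of 2.44 (SE 0.28, adjusted p = 0.00033). *Frzb*, a related decoy, and *Dkk3*, of the dickkopf family, rose by 1.63 and 1.56, and the ligand *Tgfb3* by 1.31. All 4 separated the days in all 8 arrays, against 4.24% of all probe sets in that direction. They had been called in the same arrays, so this separation is largely built in. The count was 4 without SC- day 3 replicate 1, SC- day 5 replicate 1 or SC+ day 5 replicate 2.

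Of 19 genes of the IGF, myostatin and follistatin systems 5 rose and 0 fell (median 0.48). Besides *Mest*, *Igf1*, a growth factor that drives fibre growth, was at 16.59 and 16.96 in SC- and 15.55 and 16.59 in SC+ pools at day 5 and 15.59 and 14.90 in SC- and 14.37 and 13.78 in SC+ pools at day 3, a difference of 1.76 (SE 0.25, adjusted p = 0.00147). The lowest day 5 pool of *Igf1*, an SC+ pool, was just below the highest day 3 pool, an SC- pool. *Igf2*, the fetal growth factor of muscle that is also made by differentiating myoblasts, was at 10.12 and 10.56 in SC- and 15.11 and 15.53 in SC+ pools at day 5 and 9.16 and 8.89 in SC- and 11.20 and 9.98 in SC+ pools at day 3, a difference of 3.02 (SE 0.52, adjusted p = 0.00561). Its SC+ pools at day 5 stood above all others, while the SC- pools of day 5 lay within the range of the SC+ pools of day 3. *Fstl1* and *Igfbp6*, a secreted glycoprotein and an IGF binding protein, rose by 0.87 and 0.79, and each lost its call on leaving out any 1 of 6 of the 8 arrays (highest adjusted p = 0.109 and 0.0873). The count was 3 without SC- day 3 replicate 1 or SC- day 5 replicate 1. Without treatment as covariate *Igf2* was not called, and in the fit over all 20 arrays *Igf1*, *Mest* and *Igfbp6* were not.

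**Figure D2:**
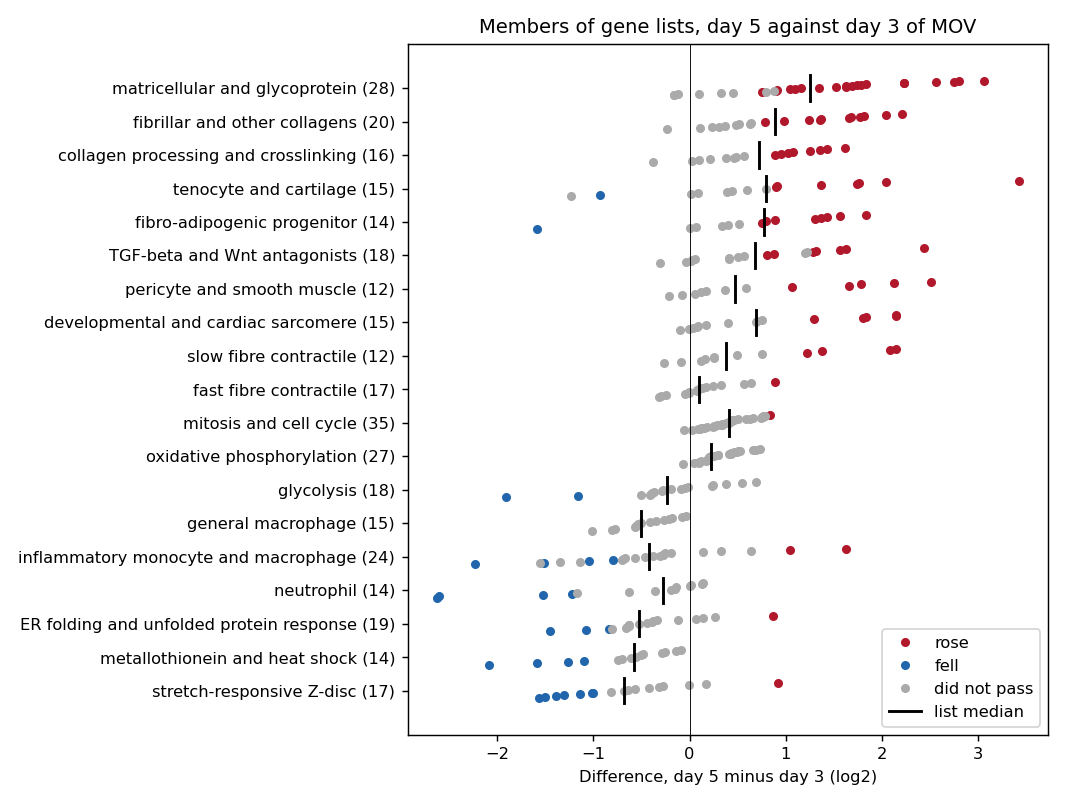
Difference in log2 RMA value, day 5 minus day 3 (x axis), of each measured member of 19 gene lists, 1 point per gene, red where it rose, blue where it fell and grey where it did not pass, with the list median as a black bar and the number measured in brackets. The lists of matricellular, collagen and collagen processing genes have medians of 0.73 to 1.25 and the Z-disc, heat shock and endoplasmic reticulum lists medians of -0.68 to -0.52.

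Fetal and cardiac isoforms of the sarcomere, which regenerating and young fibres use, rose in 5 of 15 genes and fell in 0 (median 0.70). *Myh3*, embryonic myosin heavy chain, was at 9.46 and 8.63 in SC- and 13.67 and 14.59 in SC+ pools at day 5 and 7.28 and 7.55 in SC- and 12.45 and 10.47 in SC+ pools at day 3, a difference of 2.15 (SE 0.38, adjusted p = 0.00658). *Tnnt2*, cardiac troponin T, was at 9.20 and 8.56 in SC- and 12.75 and 12.80 in SC+ pools at day 5 and 7.00 and 7.33 in SC- and 11.63 and 10.15 in SC+ pools at day 3, a difference of 1.80 (SE 0.27, adjusted p = 0.00202). *Myl4*, an embryonic and atrial light chain, was at 13.96 and 13.78 in SC- and 16.75 and 16.25 in SC+ pools at day 5 and 12.58 and 13.01 in SC- and 14.18 and 13.63 in SC+ pools at day 3, a difference of 1.83 (SE 0.28, adjusted p = 0.00236). In these 3 genes both day 5 pools were above both day 3 pools within each treatment, but the SC- pools of day 5 were no higher than the upper SC+ pool of day 3, so the days overlapped across treatments. *Tnni1*, slow and fetal troponin I, and *Myl6b*, a light chain of slow and non-muscle myosin, rose by 2.15 and 1.30. Without treatment as covariate 1 of the 5 was called, *Myl6b*, and in the fit over all 20 arrays *Myh3* and *Tnnt2* were not called.

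Of 17 satellite cell and myoblast genes 3 rose and 1 fell (median 0.05). *Mymk* rose by 1.75 (SE 0.25, adjusted p = 0.00123) in the pools whose values are given above, and *Myl4* is also in this list. *Mymk* was not called without treatment as covariate or in the fit over all 20 arrays. *Cd34* rose by 0.79, with its call lost on leaving out any 1 of 6 of the 8 arrays (highest adjusted p = 0.0871). *Itga7*, the laminin receptor of fibres and satellite cells, fell to 10.52 and 11.02 in SC- and 10.86 and 11.07 in SC+ pools at day 5, against 11.70 and 11.91 in SC- and 11.91 and 11.84 in SC+ pools at day 3, a difference of -0.97 (SE 0.17, adjusted p = 0.00678), with no overlap. The regulators *Myod1* and *Myog* did not pass (differences -0.51 and -0.59, adjusted p = 0.148 and 0.15). *Ncam1*, an adhesion molecule of new and denervated fibres, was at 12.71 and 11.87 in SC- and 13.30 and 13.96 in SC+ pools at day 5 and 10.56 and 10.65 in SC- and 11.48 and 11.45 in SC+ pools at day 3, a difference of 1.93 (SE 0.22, adjusted p = 0.000303).

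Slow fibre genes rose in 4 of 12 (median 0.38) and fast fibre genes in 1 of 17 (median 0.10), against 1.89% of all probe sets. Neither list had a fall. Within treatments the slow median was -0.06 in SC- and 1.01 in SC+, and the fast median -0.21 in SC- and 0.45 in SC+. For the difference between these changes, 6 of 12 slow and 7 of 17 fast genes had an unadjusted p under 0.05 in limma, against 9.71% of all probe sets. None passed after adjustment. Besides *Tnni1*, the slow list gave *Tnnc1*, slow troponin C, up by 1.37, *Myoz2*, the slow Z-disc protein calsarcin, up by 1.22, and *Myl2*, slow and ventricular light chain, up by 2.09. *Myl2* ranged widely, at 15.22 and 13.72 in SC- and 15.27 and 14.85 in SC+ pools at day 5 and 13.30 and 13.59 in SC- and 12.82 and 11.005 in SC+ pools at day 3, and lost its call on leaving out any 1 of 5 of the 8 arrays (highest adjusted p = 0.104). The fast riser was *Casq1*, the calcium store protein of the sarcoplasmic reticulum (0.89), a call lost on leaving out any 1 of 6 of the 8 arrays (highest adjusted p = 0.149).

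Of 17 measured Z-disc and stretch-responsive genes of fibres 7 fell, against 0.884% of all probe sets, and 1 rose, with a list median of -0.68. The median was -1.055 within SC- and -0.325 within SC+. For the difference between these 2 changes, 9 of the 17 had an unadjusted p under 0.05 in limma, against 9.71% of all probe sets, and none passed after adjustment. *Ankrd1*, an ankyrin repeat protein induced by stretch, was at 17.07 and 16.45 in SC- and 17.22 and 16.60 in SC+ pools at day 5 and 18.25 and 18.06 in SC- and 18.27 and 18.31 in SC+ pools at day 3, a difference of -1.39 (SE 0.19, adjusted p = 0.00123). *Cryab*, the small heat shock protein that guards desmin and titin, was at 18.63 and 18.74 in SC- and 19.03 and 18.95 in SC+ pools at day 5 and 19.82 and 19.92 in SC- and 19.74 and 19.93 in SC+ pools at day 3, a difference of -1.02 (SE 0.16, adjusted p = 0.00311), with the day 3 pools at the top of the scale. *Xirp1*, of fibre repair sites, was at 12.17 and 11.47 in SC- and 12.72 and 11.68 in SC+ pools at day 5 and 13.83 and 14.20 in SC- and 13.44 and 12.82 in SC+ pools at day 3, a difference of -1.56 (SE 0.30, adjusted p = 0.012). *Lmcd1*, a LIM domain protein, and *Flnc*, filamin C of the Z-disc, fell (differences -1.30 and -1.14). All 5 separated the days in all 8 arrays, against 3.9% of all probe sets in that direction. They had been called in the same arrays, so this separation is largely built in. *Fhl2*, another LIM domain protein, was the riser (0.92). The count of falls was 3 without SC- day 3 replicate 1, where *Xirp1* and *Flnc* were not called, and 4 without SC+ day 5 replicate 2, where *Xirp1* was not. *Fhl2* was not called without SC- day 3 replicate 1, SC- day 5 replicate 1 or SC- day 5 replicate 2 (highest adjusted p = 0.0777).

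Atrophy and autophagy genes fell in 3 of 15 and rose in 1 (median -0.12), against 0.884% and 1.89% of all probe sets. *Trim63*, the ubiquitin ligase MuRF1 that marks myosin for breakdown, was at 12.59 and 11.95 in SC- and 14.24 and 13.04 in SC+ pools at day 5 and 15.06 and 14.75 in SC- and 14.73 and 14.62 in SC+ pools at day 3, a difference of -1.83 (SE 0.33, adjusted p = 0.00676). *Sqstm1*, the autophagy receptor p62, was at 14.40 and 14.15 in SC- and 14.36 and 14.30 in SC+ pools at day 5 and 15.64 and 15.52 in SC- and 15.03 and 15.48 in SC+ pools at day 3, a difference of -1.11 (SE 0.18, adjusted p = 0.00299). *Fbxo32*, the ligase atrogin-1, fell (difference -1.26), with its call lost on leaving out any 1 of 5 of the 8 arrays (highest adjusted p = 0.112). *Map1lc3a*, an autophagosome coat protein, was the riser (1.24).

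Neutrophil genes fell in 4 of 14 and rose in 0 (median -0.27), and the mean level of the list was 6.72 to 7.4 over the day 5 arrays and 7.34 to 8.16 over the day 3 arrays. *S100a9*, a calgranulin subunit, was at 9.80 and 9.88 in SC- and 9.75 and 9.06 in SC+ pools at day 5 and 11.65 and 11.15 in SC- and 10.60 and 11.21 in SC+ pools at day 3, a difference of -1.53 (SE 0.21, adjusted p = 0.000985), and its partner *S100a8* fell too (difference -1.22). *Retnlg*, a resistin-like protein of neutrophils, was at 8.04 and 6.96 in SC- and 7.48 and 6.33 in SC+ pools at day 5 and 10.47 and 10.58 in SC- and 8.33 and 9.94 in SC+ pools at day 3. *Lcn2*, the iron-scavenging lipocalin, was at 10.22 and 9.26 in SC- and 8.83 and 9.55 in SC+ pools at day 5 and 12.20 and 14.39 in SC- and 10.84 and 10.84 in SC+ pools at day 3, with the SC- pools of day 3 the highest. In the fit over all 20 arrays 2 of the 14 fell, and *Lcn2* and *S100a8* were not called. *Lcn2* is also made by other stressed cells, and 5 of the 14 markers had means under 6 on the log2 scale.

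Of 24 inflammatory monocyte and macrophage genes 4 fell and 2 rose (median -0.42). The chemokine *Cxcl2* was at 7.84 and 8.18 in SC- and 7.17 and 6.72 in SC+ pools at day 5 and 10.85 and 11.30 in SC- and 7.62 and 9.07 in SC+ pools at day 3, a difference of -2.23 (SE 0.35, adjusted p = 0.0026), with 1 SC+ pool of day 3 below both SC- pools of day 5, and it was not called without treatment as covariate. *Ier3*, an early response gene, and *Chil3*, a chitinase-like protein of macrophages, fell (differences -1.52 and -1.05). *Clec4e*, a lectin receptor, fell (difference -0.79), with its call lost on leaving out any 1 of 6 of the 8 arrays (highest adjusted p = 0.112). The risers, *Fn1* and *Thbs1*, are matrix genes that other cells also make. Among 25 chemokines and their receptors *Cxcl9*, a chemokine for T cells, was the riser, at 6.80 and 7.48 in SC- and 7.18 and 8.31 in SC+ pools at day 5 and 5.66 and 5.68 in SC- and 5.75 and 6.30 in SC+ pools at day 3, a difference of 1.59 (SE 0.25, adjusted p = 0.00258), and *Cxcl14*, *Cxcl2* and *Ccl6* fell. *Ccl6* (-1.32) lost its call on leaving out any 1 of 5 of the 8 arrays (highest adjusted p = 0.102), and 5 of the list fell without SC- day 3 replicate 2. Of 15 general macrophage genes 0 rose and 0 fell, though all 15 had a difference below 0 (median -0.50), and their changes within SC- and SC+ are given below. No call was made in either direction for 22 lymphocyte and dendritic cell genes (median 0.05), 6 MHC class II genes (median 0.06) and 20 interferon-stimulated genes (median 0.03). Among 20 genes of NF-kB and the IL-6 family 2 fell and 0 rose: *Tnfrsf12a*, the TWEAK receptor (-1.23), and *Il33*, a cytokine of stromal cells (-0.98), whose call was lost on leaving out any 1 of 5 of the 8 arrays (highest adjusted p = 0.0889).

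Metallothioneins and heat shock genes fell in 4 of 14, against 0.884% of all probe sets, and rose in 0 (median -0.58, all 14 with a difference below 0). *Mt1* was at 16.23 and 15.60 in SC- and 15.67 and 15.40 in SC+ pools at day 5 and 17.83 and 18.11 in SC- and 17.56 and 17.74 in SC+ pools at day 3, a difference of -2.09 (SE 0.18, adjusted p = 4.35e-05). *Mt2* was at 18.96 and 18.50 in SC- and 18.62 and 18.003 in SC+ pools at day 5 and 19.89 and 19.83 in SC- and 19.59 and 19.82 in SC+ pools at day 3, a difference of -1.26 (SE 0.19, adjusted p = 0.00214), with its day 3 pools at the top of the scale. *Hspb1*, a small heat shock protein of the sarcomere, was at 14.46 and 14.62 in SC- and 15.85 and 14.78 in SC+ pools at day 5 and 16.72 and 16.62 in SC- and 16.53 and 16.19 in SC+ pools at day 3, a difference of -1.59 (SE 0.26, adjusted p = 0.00401). *Hsph1*, a co-chaperone, fell (difference -1.10), a call lost on leaving out any 1 of 5 of the 8 arrays (highest adjusted p = 0.0664). In the fit over all 20 arrays 2 of the 14 fell, and *Mt1* and *Mt2* were not called. Metallothioneins bind zinc and copper, and the promoters of both genes are textbook carriers of metal response elements, so their windows from RefSeq (GRCm38.p6, 250 bases before to 50 after the listed start, 5′ to 3′ on the plus strand) are shown with matches to TGCACNC or TGCGCNC on either strand in capitals. Matches were found in 25.7% of all 32851 windows of the table.
Mt1, chr8:94178839-94179138: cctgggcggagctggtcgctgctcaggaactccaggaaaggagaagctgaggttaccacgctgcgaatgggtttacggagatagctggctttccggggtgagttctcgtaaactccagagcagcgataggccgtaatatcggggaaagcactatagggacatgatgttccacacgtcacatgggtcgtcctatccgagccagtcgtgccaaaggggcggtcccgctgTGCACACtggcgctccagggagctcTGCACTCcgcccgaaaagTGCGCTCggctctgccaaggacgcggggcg
Mt2, chr8:94172368-94172667: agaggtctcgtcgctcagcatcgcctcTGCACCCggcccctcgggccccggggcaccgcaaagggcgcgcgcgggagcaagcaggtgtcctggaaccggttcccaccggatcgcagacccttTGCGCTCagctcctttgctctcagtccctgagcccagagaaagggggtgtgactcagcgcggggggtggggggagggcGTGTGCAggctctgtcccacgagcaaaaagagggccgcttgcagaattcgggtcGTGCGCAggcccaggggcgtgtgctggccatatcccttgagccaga
The *Mt1* window held 3 matches and the *Mt2* window 4. This motif was looked for after the values of both genes were seen, and a match is a description of the sequence only.

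Genes of endoplasmic reticulum folding fell in 3 of 19 and rose in 1 (median -0.52), against 0.884% and 1.89% of all probe sets. *Dnajb9*, a co-chaperone induced by unfolded protein, was at 12.21 and 12.00 in SC- and 12.44 and 11.94 in SC+ pools at day 5 and 13.62 and 13.80 in SC- and 13.14 and 13.83 in SC+ pools at day 3, a difference of -1.45 (SE 0.20, adjusted p = 0.00103). *Hspa5*, the chaperone BiP, fell (difference -1.08). *Atf6*, a sensor of unfolded protein, fell (difference -0.84), with its call lost without SC+ day 5 replicate 2 (adjusted p = 0.0651). *Sec24d*, a coat protein of vesicles that carry procollagen, was the riser (0.87), with its call lost on leaving out any 1 of 6 of the 8 arrays (highest adjusted p = 0.149). Among 18 immediate early genes *Ier3* and *Atf3*, a stress transcription factor, fell, the second to 9.78 and 10.62 in SC- and 11.22 and 10.47 in SC+ pools at day 5, against 11.92 and 12.39 in SC- and 11.85 and 11.62 in SC+ pools at day 3, a difference of -1.42 (SE 0.27, adjusted p = 0.0103).

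Of 20 genes of glutathione, thioredoxin and NRF2 targets 4 fell and 1 rose (median -0.26), against 0.884% and 1.89% of all probe sets. *Srxn1*, sulfiredoxin, was at 7.91 and 7.48 in SC- and 7.66 and 7.12 in SC+ pools at day 5 and 9.12 and 9.38 in SC- and 8.43 and 8.27 in SC+ pools at day 3, a difference of -1.25 (SE 0.20, adjusted p = 0.00307), and *Nqo1*, a quinone reductase, was at 6.65 and 6.32 in SC- and 6.31 and 6.38 in SC+ pools at day 5 and 7.94 and 7.16 in SC- and 7.17 and 7.59 in SC+ pools at day 3, a difference of -1.05 (SE 0.20, adjusted p = 0.0104). The other fallers were *Gsr*, glutathione reductase (-0.82), and *Txnrd1*, thioredoxin reductase (-0.65), and the riser was *Prdx2*, a peroxiredoxin (0.83). The call of *Gsr* was lost on leaving out any 1 of 5 of the 8 arrays and that of *Txnrd1* on leaving out any 1 of all 8 (highest adjusted p = 0.0959 and 0.132), and that of *Prdx2* without SC- day 5 replicate 1, SC+ day 3 replicate 2 or SC+ day 5 replicate 2 (highest adjusted p = 0.0803). The number that fell was 2 without SC- day 3 replicate 1, SC- day 5 replicate 2, SC+ day 3 replicate 2 or SC+ day 5 replicate 2. Glycolytic genes fell in 2 of 18, against 0.884% of all probe sets, and rose in 0 (median -0.24). *Slc2a1*, the glucose transporter Glut1, was at 11.50 and 12.05 in SC- and 10.87 and 10.73 in SC+ pools at day 5 and 14.01 and 12.70 in SC- and 12.61 and 13.46 in SC+ pools at day 3, a difference of -1.91 (SE 0.29, adjusted p = 0.00198), with no overlap. *Hk2*, the hexokinase that traps glucose, fell (difference -1.16), with its call lost on leaving out any 1 of 7 of the 8 arrays (highest adjusted p = 0.176).

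Of 15 genes of the pentose phosphate pathway and NADPH supply 0 rose and 0 fell (median -0.06). Among 22 genes for serine, folate and amino acid transport 2 fell and 0 rose (median -0.13): *Atf4*, the transcription factor of amino acid shortage (-0.86), and *Slc38a2*, a glutamine transporter (-0.87). Both lost their call without SC+ day 3 replicate 2 or SC+ day 5 replicate 2, and *Slc38a2* on leaving out any 1 of 7 of the 8 arrays (highest adjusted p = 0.0675 and 0.122). In purine and pyrimidine synthesis *Uck2*, a uridine kinase, was the 1 faller of 18, at 13.14 and 12.76 in SC- and 12.32 and 12.83 in SC+ pools at day 5 and 13.70 and 14.01 in SC- and 13.68 and 13.82 in SC+ pools at day 3, a difference of -1.04 (SE 0.19, adjusted p = 0.00678). *Pdk4* was the 1 called gene of 19 in the TCA list, at 12.26 and 11.21 in SC- and 12.24 and 11.29 in SC+ pools at day 5 and 14.18 and 13.95 in SC- and 13.48 and 13.87 in SC+ pools at day 3, a difference of -2.12 (SE 0.26, adjusted p = 0.000443). *Ampd3* was the 1 called gene of 17 in the glycogen and phosphocreatine list, at 13.55 and 12.86 in SC- and 12.75 and 12.73 in SC+ pools at day 5 and 15.11 and 15.06 in SC- and 14.84 and 15.00 in SC+ pools at day 3, a difference of -2.03 (SE 0.19, adjusted p = 5.71e-05). None of 27 oxidative phosphorylation genes (median 0.23), 18 genes of fatty acid oxidation (0.06), 14 of cholesterol synthesis (0.07), 21 of ribosome biogenesis (-0.21) or 13 cytosolic ribosomal proteins (0.03) passed in either direction.

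Of 35 mitosis and cell cycle genes 34 had a difference above 0 (median 0.41), but 1 rose, *Ccnb2*, the cyclin that drives entry into mitosis. It was at 9.53 and 9.498 in SC- and 8.90 and 9.23 in SC+ pools at day 5 and 8.67 and 8.36 in SC- and 8.45 and 8.33 in SC+ pools at day 3, a difference of 0.84 (SE 0.17, adjusted p = 0.0163), and its call was lost without SC- day 3 replicate 2, SC- day 5 replicate 1 or SC+ day 5 replicate 2 (highest adjusted p = 0.069). The number that rose was 3 without SC+ day 3 replicate 2 and 5 without SC+ day 5 replicate 1. *Mki67*, a marker of dividing cells, was at 12.93 and 13.55 in SC- and 12.13 and 12.76 in SC+ pools at day 5 and 12.03 and 11.60 in SC- and 12.14 and 12.63 in SC+ pools at day 3, and did not pass (difference 0.74, SE 0.28, adjusted p = 0.224). Of 30 DNA replication genes 0 rose and 0 fell (median 0.17). Promoters of mitotic genes often pair CCAAT boxes with a CHR element, and the window of *Ccnb2* (RefSeq, GRCm38.p6, minus strand, 250 bases before to 50 after the start, 5′ to 3′) is shown with CCAAT boxes in capitals.
Ccnb2, chr9:70421505-70421804: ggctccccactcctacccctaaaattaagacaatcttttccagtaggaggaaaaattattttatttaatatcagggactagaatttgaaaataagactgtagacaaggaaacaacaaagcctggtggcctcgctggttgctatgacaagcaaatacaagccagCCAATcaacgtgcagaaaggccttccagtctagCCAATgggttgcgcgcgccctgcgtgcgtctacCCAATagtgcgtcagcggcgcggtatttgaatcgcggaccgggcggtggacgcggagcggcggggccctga
The window held 3 CCAAT boxes in the direction of transcription and 2 CHR elements (TTTGAA or TTTAAA on either strand). CCAAT or ATTGG was found in 37.4% and a CHR element in 27.6% of all windows. Of the 5 sarcomere genes that rose, 4 had an E-box (CANNTG) in a promoter window and *Myl4* had none, a motif found in 72.3% of all windows. A gene was counted with a match in any of its windows, and *Tnni1* and *Tnnt2* had 2 each, whereas the share is per window. A strict CArG box (CCWWWWWWGG, where W is A or T) was searched for in *Acta2*, *Cnn1* and *Tagln* after their values were seen. It had 0 matches in the windows of *Acta2* and *Cnn1*, and *Tagln* had no window. The strict pattern was found in 1.63% of all windows. Sequences that depart from it by a base were not searched for, so these promoters cannot be said to lack CArG boxes.

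Among the remaining lists, *C1qtnf3* and *Serping1* rose and *Thbd* fell of 14 genes listed under complement and coagulation. *C1qtnf3*, the secreted protein described above, is not itself a complement component or a coagulation factor. *Serping1*, the C1 inhibitor (0.93), lost its call on leaving out any 1 of 5 of the 8 arrays. *Dcn*, decorin (0.75), was the 1 riser of 14 muscle-secreted peptides, a call lost on leaving out any 1 of 6 of the 8 arrays (highest adjusted p = 0.133). Of 20 reparative and resident macrophage genes 1 rose, *Igf1*, and 0 fell, and 0 of 13 mitochondrial and metabolic regulators passed. Further, 0 of 17 endothelial genes passed (median 0.31), as did 0 of 16 Notch pathway genes (median 0.09) and 0 of 2 measured red blood cell genes (median 0.70). *Ncam1* was the 1 riser of 9 Schwann cell and nerve genes and of 13 denervation genes, and *Gadd45a* the 1 faller of the denervation list (-1.05). *Gadd45a* and *Gadd45g* were the 2 fallers of 15 genes listed as p53 targets or growth arrest genes (-0.92 for the second). Both lost their call on leaving out any 1 of 5 of the 8 arrays (highest adjusted p = 0.0995 and 0.0908). *Adipoq*, adiponectin, was the 1 faller of 10 adipocyte genes (-1.12, lost on leaving out any 1 of 6 of the 8 arrays, highest adjusted p = 0.142), and *Bhlhe41* the 1 riser of 16 clock genes (0.97, lost on leaving out any 1 of 6 of the 8 arrays, highest adjusted p = 0.148). The proteasome list had 2 fallers of 19, against 0.884% of all probe sets. They were *Psmd2* and *Psmd11* (-0.73 and -0.75), both lost on leaving out any 1 of 7 of the 8 arrays (highest adjusted p = 0.0796 and 0.13).

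Whether the step differed between SC- and SC+ muscle was tested as the difference of the 2 changes. No probe set passed at an adjusted p under 0.05 in limma (lowest adjusted p = 0.104), while 1900 (9.71%) had an unadjusted p under 0.05. Of the 542 genes called for the step, 68 (12.5%) were among these. A trended and robust variance estimate called 1, and leaving out SC- day 3 replicate 1, SC+ day 3 replicate 1 or SC+ day 5 replicate 1 called 1, 2 and 3 in that order. *Igf2* had the smallest p: it changed by 1.31 in SC- and 4.73 in SC+, a difference of -3.41 (adjusted p = 0.104). *Casq2*, the slow and cardiac calsequestrin, changed by -0.38 in SC- and 1.88 in SC+, *Myoz3*, a fast Z-disc protein, by -0.36 in SC- and 1.54 in SC+, *Mstn*, myostatin, by -0.91 in SC- and 1.74 in SC+, and *Mup2*, a major urinary protein, by -1.67 in SC- and 1.26 in SC+. In the other direction, *Itgal*, an integrin of leukocytes, changed by 1.19 in SC- and -0.89 in SC+, *Cxcr4*, a chemokine receptor, by 1.19 in SC- and -0.54 in SC+, *Ms4a7*, a macrophage membrane protein, by 1.11 in SC- and -0.88 in SC+, *Tbxas1*, thromboxane synthase, by 0.85 in SC- and -1.84 in SC+, and *Slc28a2*, a nucleoside transporter, by 0.19 in SC- and -1.68 in SC+. Each of these 9 had an adjusted p of 0.16 for the difference.

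By lists, the same contrast gave more members at an unadjusted p under 0.05 than the 9.71% of all probe sets in several metabolic and immune groups. The lists described here were picked after their values were seen. Others also had larger shares, among them fatty acid uptake and oxidation (9 of 18), chemokines and receptors (11 of 25) and the fibre lists given above. Of 27 oxidative phosphorylation genes 22 were so, with list medians of -0.25 in SC- and 0.79 in SC+. The mean level of this list was 12.97 and 12.74 in SC- and 13.87 and 13.45 in SC+ pools at day 5, and 13.03 and 13.04 in SC- and 13.09 and 12.66 in SC+ pools at day 3. The highest value is an SC+ pool of day 5 and the lowest an SC+ pool of day 3. TCA genes (11 of 19, medians -0.19 in SC- and 0.64 in SC+) and genes of glycogen and phosphocreatine (12 of 17, medians -0.61 in SC- and 0.73 in SC+) had the same signs. General macrophage genes ran opposite, with 12 of 15 and medians of 0.18 in SC- and -1.13 in SC+. The 5 members with the smallest p for the step were *Itgam*, *Ctss*, *Fcgr1*, *Cd53* and *Cybb*. Their changes lay between -0.25 and 0.18 in SC- and between -1.79 and -1.12 in SC+. The 2 genes that follow were added after their values were seen. *Adgre1*, the macrophage marker F4/80, was at 11.18 and 10.99 in SC- and 9.998 and 10.17 in SC+ pools at day 5 and 10.20 and 10.45 in SC- and 10.98 and 11.01 in SC+ pools at day 3, and *Csf1r*, the receptor for macrophage growth factor, at 13.84 and 12.85 in SC- and 12.04 and 12.54 in SC+ pools at day 5 and 13.45 and 12.81 in SC- and 13.47 and 13.55 in SC+ pools at day 3. In both genes the SC+ pools of day 5 were below the SC+ pools of day 3, and for *Adgre1* the SC- pools of day 5 were above those of day 3. Mitosis genes had 13 of 35, with medians of 0.72 in SC- and 0.00 in SC+.

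Several of these counts changed when single pools were left out. The oxidative phosphorylation count was 14 without SC- day 3 replicate 1 or SC- day 3 replicate 2, 13 without SC- day 5 replicate 2, 7 without SC+ day 5 replicate 1 and 6 without SC+ day 3 replicate 2. The TCA count was 6 without SC- day 3 replicate 2 or SC- day 5 replicate 2, 4 without SC+ day 3 replicate 2 and 3 without SC+ day 5 replicate 1. The macrophage count was 7 without SC- day 5 replicate 1, and the SC- median of that list was below 0 without this pool (-0.22) or without SC- day 3 replicate 2 (-0.26). The SC- median of oxidative phosphorylation was 0.01 without SC- day 5 replicate 2. The SC+ median of glycogen and phosphocreatine genes was 0.39 without SC+ day 5 replicate 1 and 0.43 without SC+ day 3 replicate 2, and their SC- median was -0.40 without SC- day 5 replicate 2. The SC- median of TCA genes was -0.34 without SC- day 5 replicate 1 and -0.11 without SC- day 5 replicate 2. The mitosis count was 6 without SC- day 3 replicate 2, 5 without SC+ day 5 replicate 1 and 4 without SC+ day 3 replicate 2, and the SC+ median of that list lay between -0.25 and 0.25 when single SC+ pools were left out. The SC+ median of oxidative phosphorylation stayed between 0.52 and 1.06 and that of macrophages between -1.34 and -0.92 in all 8 leave-one-out fits. Levels of fibre, macrophage and mitotic genes differed between the same pools, and their part in one another's differences was not tested.

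**Figure D3:**
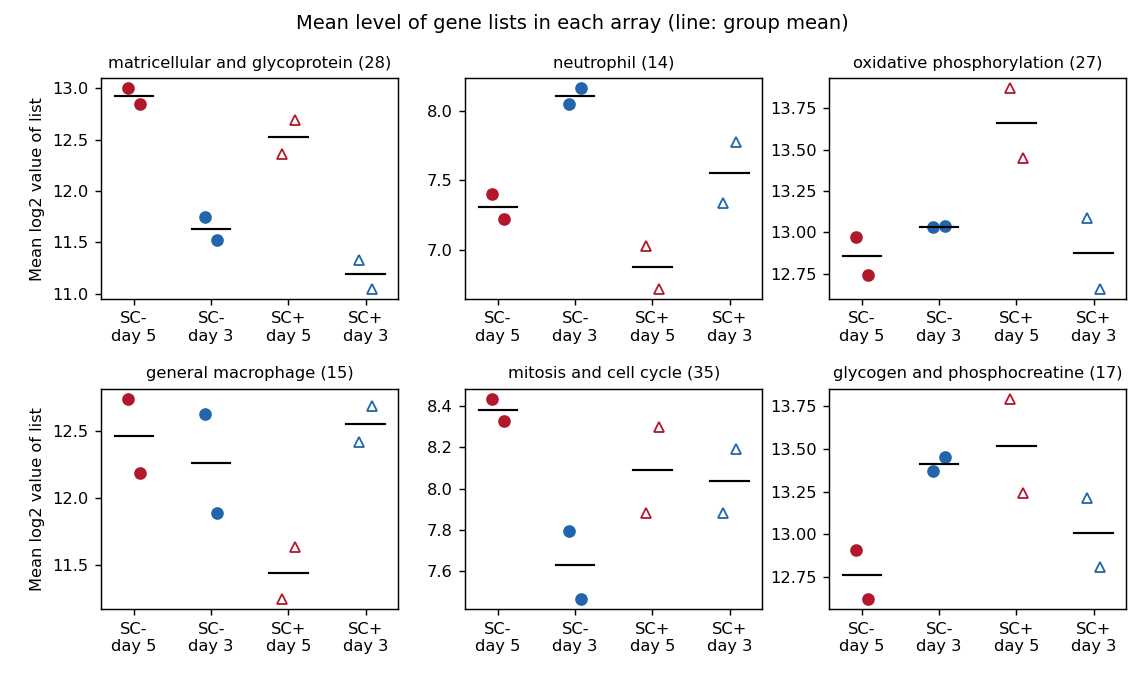
Mean log2 RMA value (y axis) of the measured members of 6 gene lists in each array, by group on the x axis, with SC- as filled circles, SC+ as open triangles, day 5 in red, day 3 in blue and the group mean as a line. Matricellular genes are higher and neutrophil genes lower at day 5 in both treatments, while oxidative phosphorylation is high in the SC+ pools of day 5 and general macrophage genes are low in them.

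Within each treatment alone, 217 probe sets rose and 128 fell in SC-, and 236 rose and 95 fell in SC+, in the same fit with a mean for each group. Without 1 of its own 4 pools, the number called was 74 to 168 in SC- and 60 to 202 in SC+, all below the counts with every pool. The changes of leading genes stood side by side: *C1qtnf3* by 4.53 in SC- and 4.37 in SC+, *Mest* by 4.45 in SC- and 2.94 in SC+, *Mt1* by -2.06 in SC- and -2.11 in SC+, and *Myh3* by 1.63 in SC- and 2.67 in SC+. *Mest* had an adjusted p of 0.313 for the difference of its changes in limma. *Clu* changed by -2.75 in SC- and -1.18 in SC+ (adjusted p = 0.246).

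Levels at the days around the step are given for a few of the genes above, without a test. *Postn* averaged 12.68 ± 3.19, 17.42 ± 0.26, 19.21 ± 0.20 and 19.55 ± 0.17 at days 1, 3, 5 and 7 of MOV (SD, n = 4 arrays each). *C1qtnf3* averaged 5.49 ± 2.38, 7.95 ± 0.80, 12.40 ± 0.65 and 14.44 ± 0.41 at these days, and *Mest* averaged 9.39 ± 3.01, 13.76 ± 0.69, 17.46 ± 0.58 and 19.07 ± 0.16. The wide SD of these 3 genes at day 1 goes with SC- day 1 replicate 2. *Mt1* averaged 19.04 ± 0.34, 17.81 ± 0.23, 15.72 ± 0.35 and 13.96 ± 0.40, and *Trim63* averaged 17.71 ± 0.56, 14.79 ± 0.19, 12.96 ± 0.96 and 12.36 ± 0.62, both with a lower mean at each later day. *Saa3* had its highest mean at day 3, with 9.20 ± 0.72, 11.33 ± 1.47, 8.12 ± 0.79 and 7.62 ± 0.47 at days 1, 3, 5 and 7. *Itga7* and *Cxcl14* were also highest at day 3 by mean (11.84 ± 0.10 for *Itga7* and 11.51 ± 0.32 for *Cxcl14*).

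**Figure D4:**
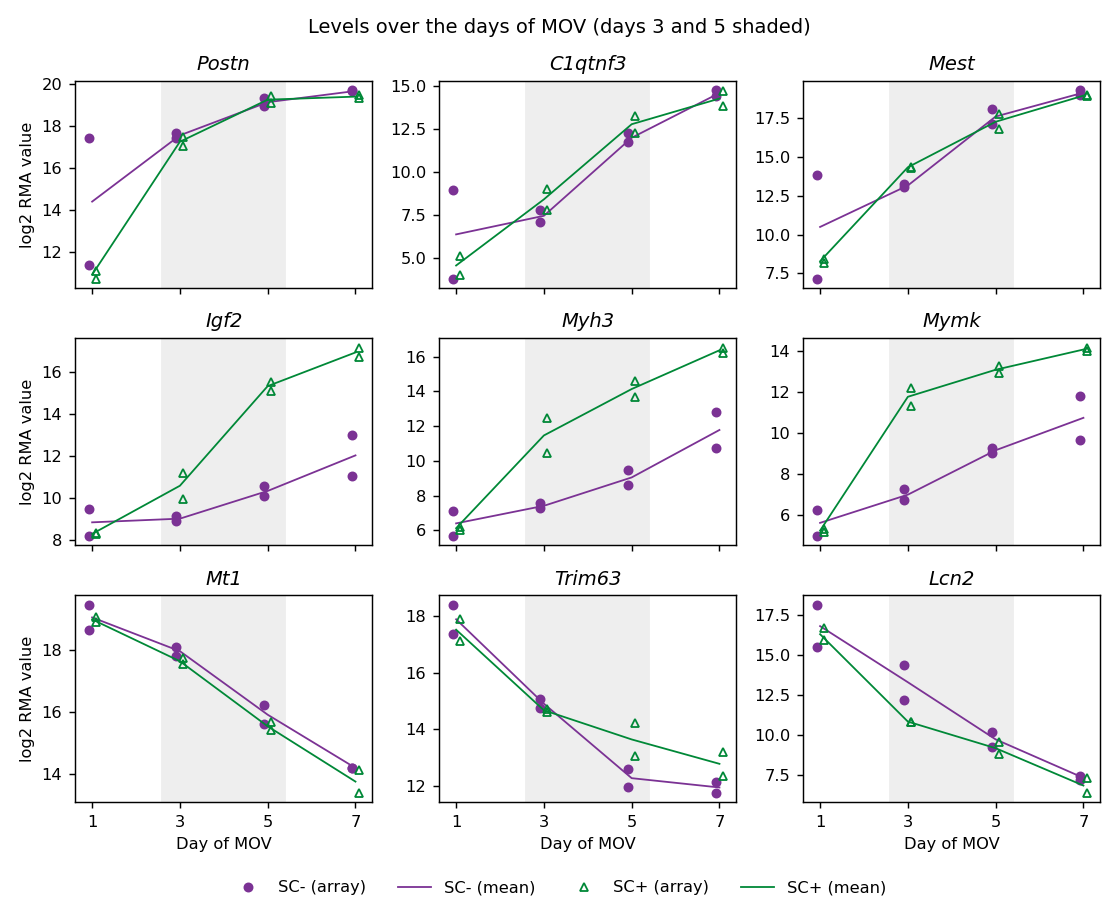
Log2 RMA value (y axis) of 9 genes at days 1, 3, 5 and 7 of MOV (x axis), 1 point per array, with SC- as filled purple circles, SC+ as open green triangles and a line through each treatment's means, and days 3 and 5 shaded. *Postn*, *C1qtnf3* and *Mest* are higher at day 5 than at day 3 in both treatments, *Igf2*, *Myh3* and *Mymk* are higher in SC+ pools from day 3 on, and *Mt1*, *Trim63* and *Lcn2* are lower at day 5.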

How the data were processed

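Plantaris RNA was measured on arrays. The authors deposited log2 values of 28846 probe sets, for which the submitters' processing notes name RMA, a method that corrects background, quantile normalizes and summarises probe intensities. The software, the RMA version and the probe-set definition behind the deposited table are not given in the sources used here. Of these, 19572 probe sets with 1 gene symbol (19505 genes) were tested and 9274 were not used.

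The deposited values were fitted without further normalization with limma 3.58.1 (statmod 1.5.0, R 4.3.3) as day plus treatment over the 8 arrays, with Benjamini-Hochberg adjustment over all 19572 and a threshold of 0.05. A fit with a mean for each of the 4 groups gave the change within SC- and SC+ and the difference between them. The scripts were tested on simulated data. Groups came from the labels, and the 54 gene lists and all members were chosen with earlier results of these data known. Named genes were the 10 largest rises and falls without overlap between days and with a mean of at least 7 in the higher day, up to 5 members of each list with the smallest p, members that a small count singles out, and 5 genes in each direction for the difference between SC- and SC+. Predicted genes, Riken clones, pseudogenes and similar symbols were counted but passed over when the largest changes and differences were named. *Adgre1*, *Csf1r* and the single genes given as not passing were added after their values were seen.

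Alternatives were a block for replicate number, renewed quantile normalization, a mean of at least 6, trended and robust variances, all 20 arrays, 1 probe set per gene, all rows, no treatment covariate, averaged group means, the 4 arrays of a treatment alone and each array left out in turn. Deviations of same-numbered arrays from their group means correlated at -0.0855 to 0.122, so replicate numbers were not taken to pair arrays. Promoter windows came from RefSeq (GRCm38.p6).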

Additional observations from a re-analysis of the deposited data

How the results depend on the processing

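All 542 genes called for the step kept their sign in every alternative that tested them. Because all groups are of equal size, the block, variance, covariate, 20-array, averaged-means and row settings leave the estimate unchanged, so those signs were fixed in advance. Renewed quantile normalization and leaving out arrays could change it, but for genes already picked from these arrays. Rises numbered 189 and falls 50 with all rows of the table tested, where 10 genes were called within SC- and 26 within SC+, and the cause was not tested. With all 20 arrays in the fit, 101 were called within SC- and 40 within SC+, and trended and robust variances called 1 gene for the difference between SC- and SC+. Leaving out each array in turn gave 223 to 409 rises, 79 to 199 falls, 0 to 3 genes for the difference, 74 to 368 within SC- and 60 to 353 within SC+. Such fits can leave a group with 1 array, which is then assumed to vary like the others. With the replicate number as a block, which was not taken to pair the arrays, there were 346 rises, 152 falls, 0 genes for the difference, 387 within SC- and 388 within SC+. Averaged group means, whose error leaves out the difference between SC- and SC+ in the change, gave 463 rises and 247 falls. The difference between SC- and SC+ in the change of *C1qtnf3* lay between -0.45 and 0.79 and that of *Mt1* between -0.26 and 0.36 when arrays were left out, so neither had a fixed sign.

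Of the 127 named genes called, 95 were called whichever 1 array was left out. The number that lost its call was 46 with all 20 arrays, 48 with all rows, 19 without the treatment covariate, 3 with the block, 2 with renewed quantile normalization, 1 with trended and robust variances, and 0 with 1 probe set per gene, averaged group means or a mean of at least 6 among those tested. With 2 pools per group, small differences were not detectable, and levels near the top of the scale understate differences.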
